A study of Mus musculus with 12 samples.

Results

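The 10 apolipoprotein genes described here are Apoa1, Apoa2, Apoa4, Apoa5, Apob, Apoc1, Apoc2, Apoc3, Apoe and Apom. They were chosen by gene symbol, as the genes for the main protein components of plasma lipoproteins, and all 10 were found among the 24537 genes of the deposited liver table. Liver RNA was sequenced from 12 male C57Bl/6J mice that started the diets at 6 weeks of age and were housed individually. Con mice ate ad libitum, CR mice received 30% less, and each diet was sampled after 25 and after 30 days with 3 mice per group, each mouse giving 1 library. By the study's methods, the CR mice ate a fortified version of the Con chow, provided daily at a fixed hour, and mice of the study were labelled with heavy water before sacrifice. The amount of food, its formula and the feeding schedule therefore cannot be told apart. The comparisons ask how CR changed the mRNA of these genes at each day, and whether that effect differed between the days, the interval in which the study looked for a change in hepatic protein synthesis.

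Apolipoproteins are the proteins that carry lipids through plasma, and the liver is a main source of most of them. Apob is the large scaffold that stays with a very low density lipoprotein particle from assembly to uptake, while Apoa1 is the main scaffold of high density lipoprotein (HDL). The smaller apolipoproteins move between particles. Apoc2 activates lipoprotein lipase, Apoc3 restrains triglyceride clearance, Apoa5 favours it, and Apoe is a ligand for receptors that take particles up. Apoc1 and Apoa2 ride mainly on HDL and triglyceride-rich particles, Apom carries sphingosine-1-phosphate on HDL, and Apoa4 is made in large amounts by the intestine and, in mice, also by the liver.

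Levels are given as FPKM, in which the reads that fall on exons are divided by the length of the exons and by library depth. Depth was 15748446 to 23345281 reads per library, and all 10 genes reached 1 FPKM in 3 or more libraries, as did the 10593 genes tested in all. Fold changes are on the log2(FPKM + 1) scale. A gene was called at a Benjamini-Hochberg adjusted p under 0.1 in limma, adjusted over all genes tested. The levels of hepatocyte markers were used to check the tissue label. Of 9 listed markers, 8 were in the table, and their summed FPKM was 40594 to 70973, most of it albumin (Alb). Presence in the table alone is no check, as it also lists genes at 0 in all libraries. In whole liver, fewer cells of a type and less RNA per cell cannot be told apart.

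Of the 10 genes, 4 stand close together on chromosome 9 of mm10. Apoa1 (chr9:46228630-46230469, plus strand) is followed by Apoc3 (chr9:46233050-46235299, minus strand), Apoa4 (chr9:46240844-46243458, plus strand) and Apoa5 (chr9:46268608-46271919, plus strand). The 4 genes span 43290 bases, with 2580 bases between Apoa1 and Apoc3. A further 3 stand within 27043 bases of chromosome 7, all on the minus strand, namely Apoc2 (chr7:19671579-19673920), Apoc1 (chr7:19689480-19692659) and Apoe (chr7:19696244-19698621). Apob (chr12:7977677-8016839, plus strand), Apoa2 (chr1:171225054-171226379, plus strand) and Apom (chr17:35128997-35131752, minus strand) stand alone. The exon length used for Apob was 13878 bases, against 382 to 2315 bases for the other 9 genes.

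RefSeq windows upstream of a start site (GRCm38.p6, the assembly of mm10) were given for 8 of the 10 genes, all but Apoc1 and Apoc3. The 250 bases that end just before the start site are shown for the 4 genes called in a CR comparison, so that the genes that fell and those that rose can be read side by side. Capitals mark letters found on either strand from a list of 4 strings, namely the TATA-box letters TATAAA, the string CAAAG, the nuclear receptor half-site AGGTCA and the E-box CACGTG.
Apob, chr12:7977427-7977676, plus strand: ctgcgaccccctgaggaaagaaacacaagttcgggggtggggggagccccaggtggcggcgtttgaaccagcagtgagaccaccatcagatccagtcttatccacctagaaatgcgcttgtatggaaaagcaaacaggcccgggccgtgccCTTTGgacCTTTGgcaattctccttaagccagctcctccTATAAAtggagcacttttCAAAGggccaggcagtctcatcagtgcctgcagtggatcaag
Apoa1, chr9:46228380-46228629, plus strand: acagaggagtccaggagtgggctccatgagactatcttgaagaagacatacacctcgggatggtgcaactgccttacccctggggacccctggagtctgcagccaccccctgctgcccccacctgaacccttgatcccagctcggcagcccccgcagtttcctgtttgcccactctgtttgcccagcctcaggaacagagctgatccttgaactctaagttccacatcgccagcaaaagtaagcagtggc
Apoa4, chr9:46240594-46240843, plus strand: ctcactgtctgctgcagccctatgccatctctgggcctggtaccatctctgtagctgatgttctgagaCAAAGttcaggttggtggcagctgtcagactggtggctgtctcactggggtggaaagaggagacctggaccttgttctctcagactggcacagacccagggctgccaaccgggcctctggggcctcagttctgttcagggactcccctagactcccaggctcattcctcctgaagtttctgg
Apoa5, chr9:46268358-46268607, plus strand: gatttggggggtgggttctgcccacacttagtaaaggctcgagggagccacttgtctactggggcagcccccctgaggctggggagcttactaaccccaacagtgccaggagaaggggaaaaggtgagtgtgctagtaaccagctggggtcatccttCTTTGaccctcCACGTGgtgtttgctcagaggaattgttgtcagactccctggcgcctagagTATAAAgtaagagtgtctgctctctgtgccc
The Apob window held TATAAA at positions -60 to -55 from the start site, and CAAAG in 3 places. The Apoa5 window held TATAAA at -31 to -26, CACGTG at -82 to -77 and CAAAG on the minus strand at -93 to -89. The Apoa4 window held CAAAG alone, and none of the 4 strings was in the Apoa1 window. Over all windows of the 8 genes, TATAAA was found for 4 genes, CAAAG for 5, AGGTCA for Apoa2 and Apoc2, and CACGTG for Apoa5. The windows with AGGTCA belong to other start sites, at -3490 bases (Apoa2) and -4021 bases (Apoc2) from the start of the table entry. Of 32851 windows of 250 bases over all genes, 12.4% held TATAAA, 48.6% CAAAG, 14.0% AGGTCA and 6.02% CACGTG. These shares are per window, while the 8 genes had 12 windows and counted with a match in any of theirs, so the units differ. In the upstream window of Apoe that ends at the start of its table entry, 2 TATAAA matches on opposite strands overlapped.

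The genes differed widely in level. Apoe had the highest mean over the 12 libraries, 13651 FPKM (SD 1286), and ranked 2 among all genes of the table. Apoa2 followed at 12332 (SD 1470), and Apoe exceeded Apoa2 in 11 of 12 libraries, although their ranges overlapped. Apoc1 at 6629 (SD 742) and Apoa1 at 6516 (SD 1157) did not differ in order, as Apoc1 was higher in 7 of 12 libraries. Apoc3 lay apart from its neighbours at 2625 (SD 414). Apob at 597.6 (SD 110) and Apoa5 at 597.4 (SD 126) had nearly the same mean, and Apob was higher in 7 of 12 libraries. Apoc2 and Apom came next, both with a mean of 256, and Apoc2 was higher in 6 of 12 libraries. Apoa4 was lowest at 87.5 (SD 52.2) and ranked 609.

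**Figure D1:**
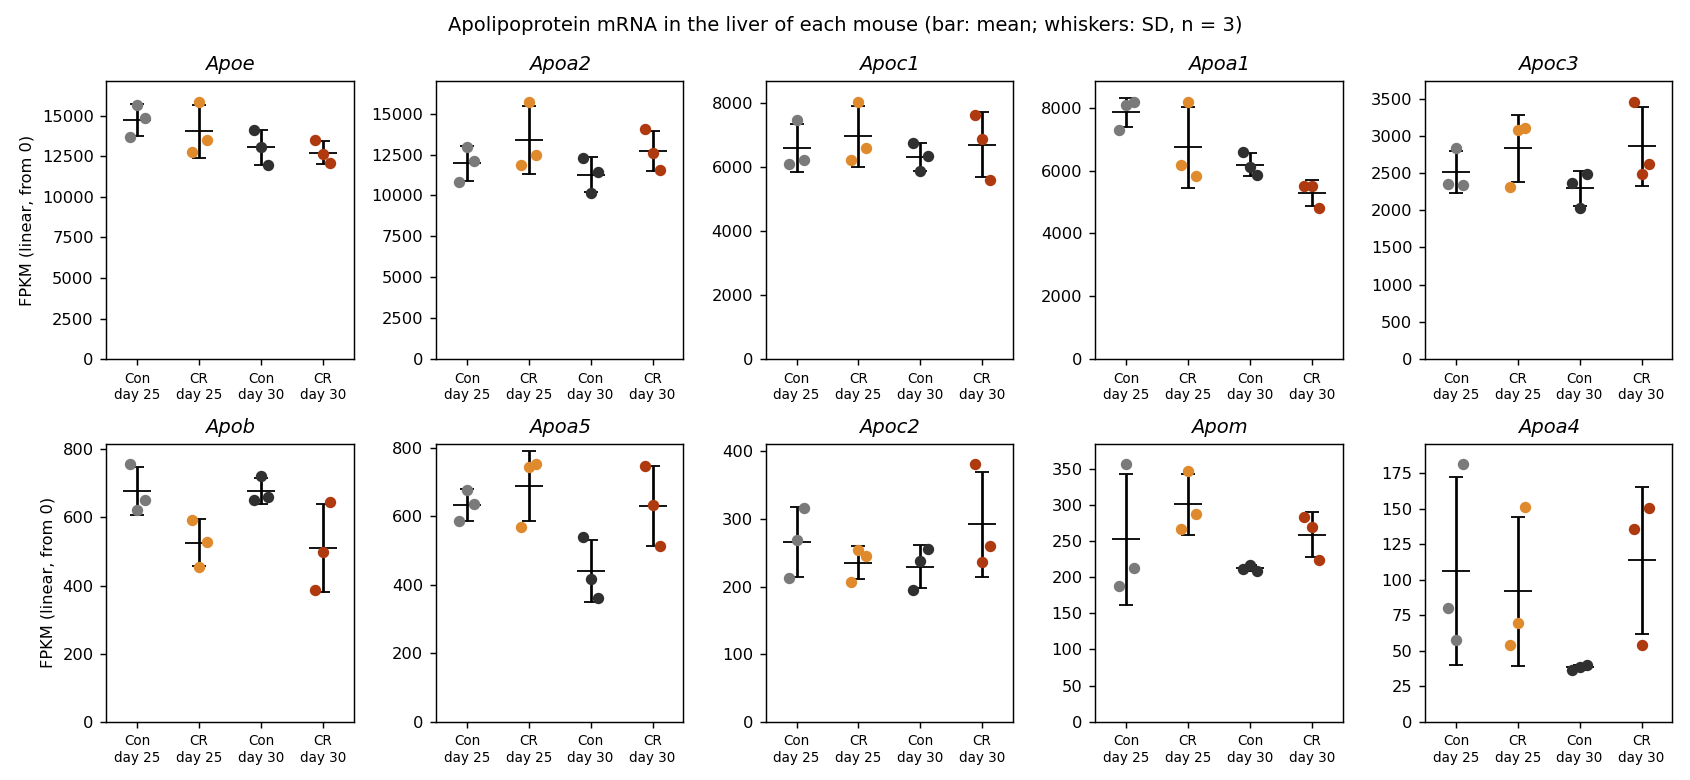
FPKM of each apolipoprotein gene in each mouse, on a linear axis from 0, with genes in order of their mean level. Points are single mice (3 per group), bars the group mean and whiskers the SD. Apoa4 varied most, from 36.2 to 181 FPKM, and the 3 Con mice of day 30 lay together at its lower end.

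Together the 10 genes held 9.54% to 11.7% of the summed FPKM of a library and 4.63% to 5.58% of its reads on exons. The 2 shares differ because the most abundant members are short. At day 25 the share of reads was 5.55% to 5.58% in Con mice and 4.87% to 5.49% in CR mice. At day 30 it was 4.85% to 5.27% and 4.63% to 4.81%. Diets thus did not overlap in the share of reads at either day, beside 28.2% and 36.4% of single genes tested. They overlapped in the share of summed FPKM at both days, and neither share was tested. Among members, Apoa4 had the widest spread, from 36.2 to 181 FPKM with a coefficient of variation of 59.6%. Apoe had the narrowest, with a 1.33-fold range and a coefficient of variation of 9.42%.

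At day 25, limma called 0 of the 10 genes, and 0 had an unadjusted p under 0.05. Over all genes tested, 14.9% were called, with 5.60% higher and 9.34% lower in CR mice. When the fold change also had to reach 2 (1 on the log2 scale), 0 of the 10 were called, against 1.48% of all genes. With voom on reads recovered from the FPKM, 0 of the 10 were called. The median log2 fold change was 0.0012 over the 10 genes and -0.04 over all genes tested. The smallest adjusted p was that of Apob, at 0.202 for a log2 fold change of -0.37 (SE 0.17), with a 95% interval of -0.73 to 0.0011. Apob was also the 1 gene of the 10 whose CR and Con mice did not overlap at day 25, a pattern that 28.2% of all genes tested had.

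At day 30, limma called 3 of the 10 genes, with 24.7% called over all genes tested. Apoa4 and Apoa5 were higher and Apob was lower in CR than in Con mice, beside 8.33% of all genes called higher and 16.4% called lower. The median log2 fold change was 0.23 over the 10 genes and -0.07 over all genes tested. CR and Con mice did not overlap for 5 genes, with Apoa4, Apoc3 and Apom higher and Apoa1 and Apob lower in CR mice, and 36.4% of all genes tested had no overlap. With the same minimum fold change, Apoa4 was the 1 gene called, against 2.21% of all genes tested. Without the filter on low values, none of the 3 day 30 calls held (adjusted p of 0.122 for Apoa4, 0.117 for Apoa5 and 0.165 for Apob in limma). Over both days, Apob alone kept its call without the filter (adjusted p of 0.412 for Apoa1 and 0.143 for Apoa5).

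Over both days, with day as a covariate, limma again called 3 of the 10 genes, and 40.6% of all genes tested. Apob and Apoa1 fell and Apoa5 rose, beside 26.1% of all genes called lower and 14.5% called higher. With the minimum fold change, 0 of the 10 were called, against 1.66% of all genes. The median log2 fold change was 0.12 over the 10 genes and -0.05 over all genes tested. The medians at each day and over both days are not matched for transcript length. Apoa2, Apoc1, Apoc2, Apoc3 and Apom are among the 1062 shortest genes tested, whose median was 0.06 at each day and over both. Among the 1058 longest genes tested it was -0.10 over both days. The part of length in these contrasts was not tested. Direction across the table depended on scaling. Of genes called over both days, 1536 were higher and 2768 lower in CR mice, and median-ratio scaling between libraries gave 2166 and 2076. At day 25 the split was 593 and 989, against 855 and 854, and at day 30 it was 882 and 1737, against 1326 and 1261.

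**Figure D2:**
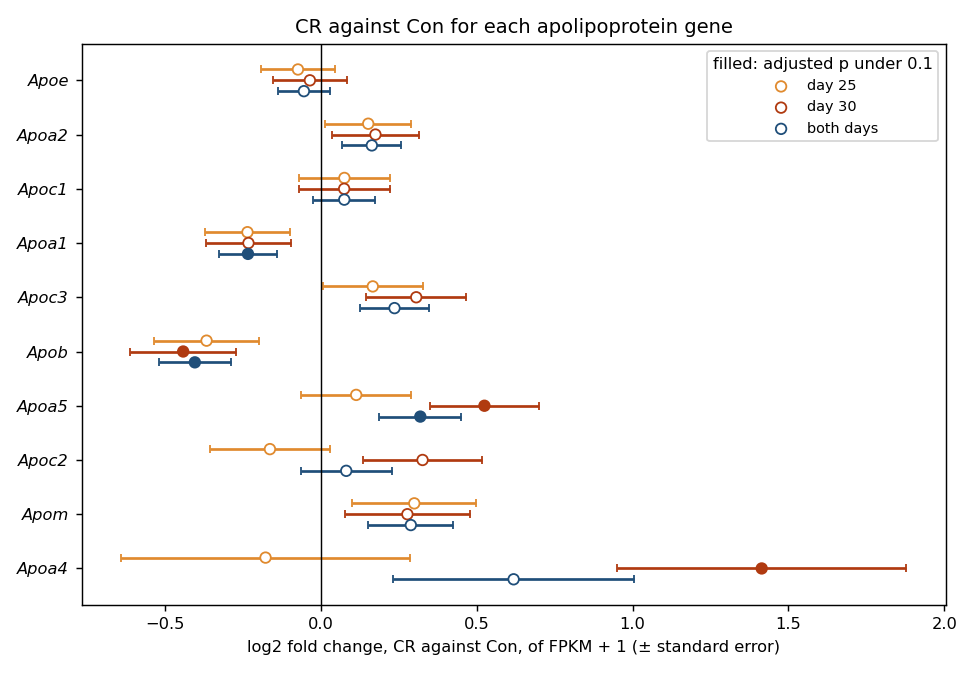
Log2 fold change of FPKM + 1, CR against Con, for each apolipoprotein gene at day 25, at day 30 and over both days. Whiskers are the standard error from limma, and filled points have an adjusted p under 0.1. Apob lay below 0 at both days, and Apoa4 moved from -0.18 at day 25 to 1.41 at day 30.

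Apob, the scaffold of very low density lipoprotein, had the smallest p over both days. At day 25 its FPKM was 756, 621 and 653 in the Con mice and 593, 456 and 529 in the CR mice. At day 30 it was 652, 722 and 661 in the Con mice and 386, 498 and 645 in the CR mice. Every CR mouse was below every Con mouse of its day, as for 18.0% of all genes when both days go the same way, but the highest CR mouse of day 30 came near the lowest Con mouse. The log2 fold change was -0.44 (SE 0.17, adjusted p = 0.0943 in limma) at day 30 and -0.40 (SE 0.12, adjusted p = 0.0184) over both days. The day 30 call was lost in 5 of 6 fits that left out 1 mouse, and without CR mouse 1 the change was -0.26 (adjusted p = 0.342). The call over both days was kept in all 12 such fits.

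Apob has a long transcript, and long transcripts as a whole had a lower median in CR than in Con mice, although not in every CR library. Among the 1058 longest of the genes tested, of 5768 bases or more, the median log2 fold change was -0.08 at day 25 and -0.13 at day 30. Over all genes tested it was -0.04 and -0.07. Among the 1062 shortest, of 957 bases or fewer, the median was 0.06 at both days. The median deviation of the longest minus that of the shortest was 0.13, -0.34 and -0.08 in CR mice 1 to 3 of day 25. It was -0.30, -0.15 and 0.20 in those of day 30, and -0.09 to 0.19 in Con mice. Of the 363 other tested genes of at least 8000 bases, 7.16% had a lower log2 fold change than Apob at day 30 and 6.34% over both days. The 3 genes most like Apob over the 12 libraries were Usp9x (Pearson r = 0.967), Dennd4c (r = 0.959) and Trip12 (r = 0.954), with exon lengths of 11855, 7758 and 9589 bases. These points share libraries and their length-related differences. After each library was centred within 10 classes of transcript length, a step chosen after the data were seen, Apob changed by -0.31 at day 30 (adjusted p = 0.104) and by -0.30 over both days (adjusted p = 0.0171).

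**Figure D3:**
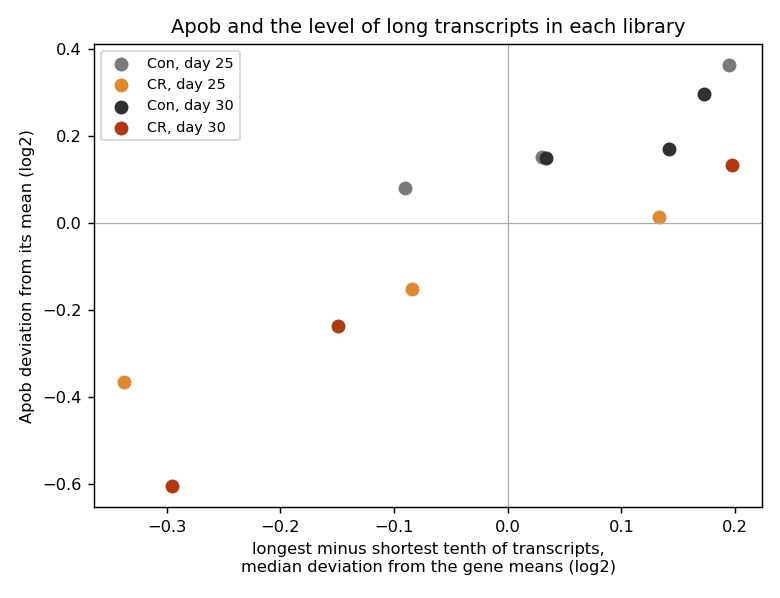
Each point is 1 library (3 per group). The x axis is the median deviation of the 1058 longest transcripts from their gene means, minus that of the 1062 shortest, and the y axis is the deviation of Apob from its mean, both in log2 units. CR mouse 1 of day 30 lay at -0.30 and -0.61, and CR mouse 3 of day 30 at 0.20 and 0.13.

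Apoa1, the HDL scaffold, was lower under CR over both days. At day 25 its FPKM was 7310, 8077 and 8171 in the Con mice and 6190, 8198 and 5829 in the CR mice. At day 30 it was 6596, 6127 and 5860 in the Con mice and 5504, 5524 and 4807 in the CR mice. The groups overlapped at day 25, where CR mouse 2 exceeded all Con mice, and did not overlap at day 30. The log2 fold change was nearly the same at each day, -0.24 at day 25 and -0.23 at day 30, and neither was called. The day 25 value rested on single mice, as it was -0.38 and called (adjusted p = 0.0825 in limma) without CR mouse 2, and -0.14 without CR mouse 3. The day 30 value was called under TPM scaling (adjusted p = 0.0959). Over both days it was -0.23 (SE 0.093, adjusted p = 0.0703 in limma), a call lost in 6 of 12 fits that left out 1 mouse, under median-ratio scaling (adjusted p = 0.165) and under quantile normalization (-0.16, adjusted p = 0.101). The genes most like Apoa1 over the 12 libraries were Pigs (Pearson r = 0.962), Serpina1a (r = 0.938) and Gfer (r = 0.937). Serpina1a belongs to a family of near-identical copies, so its FPKM is uncertain.

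The other HDL proteins, Apoa2 and Apom, were not called in the FPKM as deposited. Apoa2 ranged from 10120 to 12975 FPKM in Con mice and from 11580 to 15734 in CR mice, with a log2 fold change of 0.16 (SE 0.095, adjusted p = 0.205 in limma) over both days, which median-ratio scaling called (0.23, adjusted p = 0.0790). Its table entry is a RefSeq transcript of the noncoding series that is 382 bases long. Apom was 211, 216 and 208 FPKM in the Con mice of day 30 and 282, 270 and 223 in the CR mice, which did not overlap. At day 25, Con mouse 2 had 356 FPKM, against 188 and 213 in the other two Con mice. The Apom change over both days was 0.29 (SE 0.14, adjusted p = 0.121), and with the replicate number as a block at day 25 its adjusted p was 0.0238. It was also called under median-ratio scaling (adjusted p = 0.0442), TPM scaling (0.0893) and centring by transcript length (0.0930). Without Con mouse 2 of day 25 the change was 0.58 at day 25 (adjusted p = 0.0392) and 0.41 over both days (adjusted p = 0.00974), and without CR mouse 3 of day 30 it was 0.34 over both days (adjusted p = 0.0974).

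Apoa4 showed the largest fold change of the 10 genes. At day 25 its FPKM was 79.8, 57.6 and 181 in the Con mice and 54.2, 69.9 and 152 in the CR mice. At day 30 it was 36.2, 38.7 and 40.1 in the Con mice and 136, 54.4 and 151 in the CR mice. The diets overlapped at day 25, while at day 30 the 3 Con mice lay close together below all CR mice. The log2 fold change was -0.18 (SE 0.46) at day 25 and 1.41 (SE 0.46, adjusted p = 0.0558 in limma) at day 30. The day 30 call was lost in 5 of 6 fits that left out 1 mouse, with changes of 1.15 to 1.87 over the 6 fits. The call held without CR mouse 2. Over both days Apoa4 was not called (0.62, adjusted p = 0.238), except without Con mouse 3 of day 25 (0.92, adjusted p = 0.0527).

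The difference between the days in the effect of CR on Apoa4 was 1.59 on the log2 scale (SE 0.66, unadjusted p = 0.0314, adjusted p = 0.9995 in limma), and it was not called. Apoa4 was also lower in Con mice at day 30 than at day 25, with a log2 change of -1.28 (SE 0.46, adjusted p = 0.573 in limma). Both comparisons use the same Con mice of day 30. Because intestine also makes Apoa4, intestinal markers were checked, and of 5 listed, Sis and Cdh17 were at 0 in all libraries. The summed FPKM of the 5 was 42.0 to 66.4 in Con mice and 33.6 to 47.8 in CR mice at day 25, and 41.2 to 49.2 and 35.3 to 49.6 at day 30. Almost all of it was Fabp2, which liver expresses too. Antisense gene models lie opposite Apoa4 and Apoa5, and whether counting used strand was not given in the sources used here, so their reads cannot be told apart.

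Apoa5, which promotes triglyceride clearance, was higher in CR than in Con mice at day 30. Within CR mice its log2 change from day 25 to day 30 was -0.13 (SE 0.18). The difference between the days in the effect of CR was not called (0.41, adjusted p = 0.9995 in limma). Its FPKM at day 25 was 585, 676 and 635 in the Con mice and 569, 744 and 751 in the CR mice. At day 30 it was 539, 417 and 361 in the Con mice and 747, 632 and 513 in the CR mice. The diets overlapped at both days, by 1 mouse at day 30, and the Con mice of day 30 lay below those of day 25. The log2 fold change was 0.11 (SE 0.18) at day 25, 0.52 (SE 0.18, adjusted p = 0.0603 in limma) at day 30 and 0.32 (SE 0.13, adjusted p = 0.0814) over both days. The day 30 call was lost in 4 of 6 fits that left out 1 mouse, and the call over both days in 7 of 12 and under quantile normalization (0.27, adjusted p = 0.115). Without Con mouse 3 of day 30 the change over both days was 0.24 (adjusted p = 0.179).

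The C apolipoproteins and Apoe were not called in any comparison with Con in the FPKM as deposited. Apoc3, which restrains lipolysis, was 2366, 2038 and 2483 FPKM in the Con mice of day 30 and 3462, 2490 and 2625 in the CR mice. These groups did not overlap, yet the nearest values were 2483 and 2490. Its log2 fold change was 0.31 (SE 0.16, adjusted p = 0.214 in limma) at day 30 and 0.24 (SE 0.11, adjusted p = 0.123) over both days, and the block at day 25 gave an adjusted p of 0.0961 for the latter. The Apoc3 change over both days was also called under quantile normalization (0.38, adjusted p = 0.0176) and median-ratio scaling (0.30, adjusted p = 0.0606). The same held without Con mouse 2 of day 25 (adjusted p = 0.0775) and without CR mouse 1 of day 25 (adjusted p = 0.0434). Centring by transcript length gave no call for Apoc3 (0.17, adjusted p = 0.180, and 0.208 with the block added). Of 10 alternatives that kept all mice, apart from the minimum fold change, 3 called it over both days. Apoc2, the lipase activator, ranged from 195 to 316 FPKM in Con mice and from 207 to 381 in CR mice. Its estimates were -0.16 (SE 0.19) at day 25 and 0.33 (SE 0.19) at day 30. Its entry shares its span with a readthrough entry that joins it to Apoc4, so its FPKM is uncertain. Apoc1 changed by 0.08 (SE 0.15) at day 25 and by 0.07 (SE 0.15) at day 30, and Apoe by -0.07 (SE 0.12) and -0.03 (SE 0.12). The 95% intervals over both days were -0.14 to 0.29 for Apoc1, and -0.23 to 0.12 for Apoe, whose sign turned under median-ratio scaling.

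Within a library, a ratio of FPKM between neighbours does not depend on scaling between libraries. The 9 pairs within the chromosome 9 and chromosome 7 groups were compared in this way after the data were seen, by a 2-sided exact permutation test of diet within each day over 400 arrangements. Apoa1 was 3.10, 2.85 and 3.49 times Apoc3 in the Con mice of day 25 and 2.68, 2.66 and 1.88 times in the CR mice. At day 30 the ratio was 2.79, 3.01 and 2.36 in the Con mice and 1.59, 2.22 and 1.83 in the CR mice. Diets did not overlap at either day, and the mean log2 ratio, CR minus Con, differed by -0.40 at day 25 and -0.54 at day 30. For the log2 ratio of Apoa1 to Apoa5 the differences were -0.35 and -0.76, and all 6 CR mice lay below all 6 Con mice. Among single genes tested, 18.0% were apart in the same direction at both days. How often ratios of other gene pairs are apart was not computed, so the separation cannot be called particular to these neighbours. Both pairs had an exact permutation p of 0.005, the smallest the test can give, and 0.0225 after Benjamini-Hochberg adjustment over the 9 pairs. The pairs share Apoa1, and Apoc3 and Apoa5 were correlated over the libraries (r = 0.698), so these results are not separate evidence. The adjusted p of the other 7 pairs was 0.18 to 0.985. By contrast, Apoc3 to Apoa5 overlapped at both days, with differences of 0.05 and -0.22. On chromosome 7, the log2 ratio of Apoe to Apoc1 differed by -0.15 at day 25, without overlap, and by -0.11 at day 30, with overlap.

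**Figure D4:**
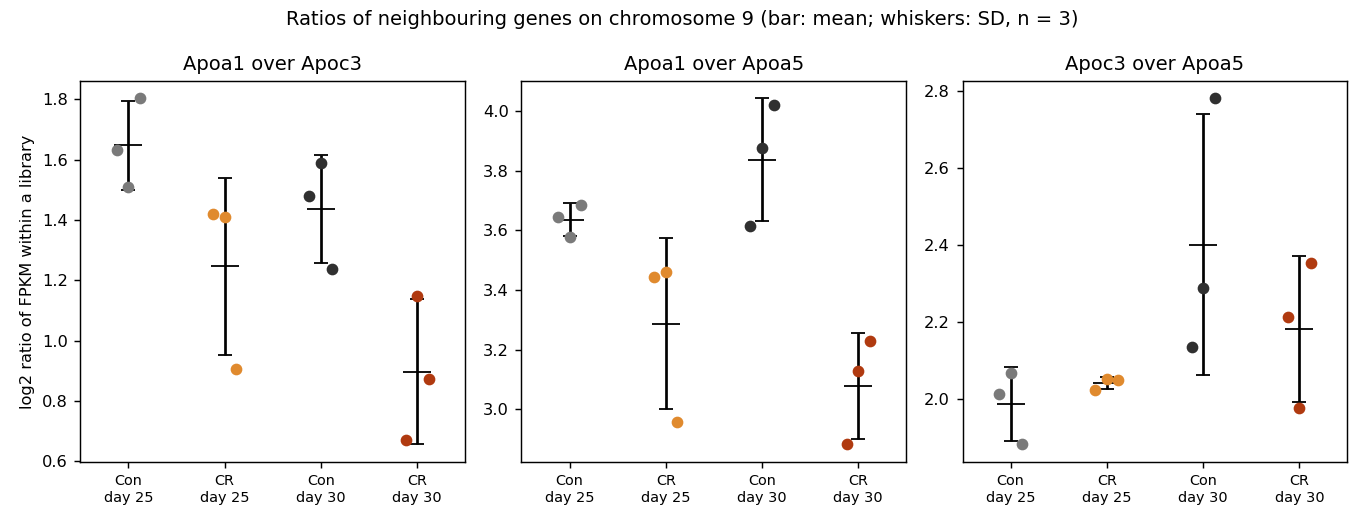
Log2 ratio of FPKM within each library for 3 pairs of genes in the chromosome 9 group, with points for single mice (3 per group), bars for the mean and whiskers for the SD. The vertical axes do not start at 0 and differ between panels. CR mice lay below Con mice at both days for Apoa1 over Apoc3 and for Apoa1 over Apoa5, and overlapped them for Apoc3 over Apoa5.

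Whether the effect of CR differed between day 25 and day 30 was tested by the interaction. None of the 10 genes was called (limma and voom each called 0), and Apoa4 was the 1 gene with an unadjusted p under 0.05, with 0.00944% of all genes called. Within CR mice, day 30 against day 25 gave 0 calls among the 10 by limma and by voom, and 0.321% of all genes. Apoa1 had the 1 unadjusted p under 0.05, with a log2 change of -0.34 (SE 0.14, adjusted p = 0.483), and its CR mice of the 2 days did not overlap, as for 14.7% of all genes. Within Con mice, limma and voom called 0 of the 10, with 0.00% of all genes called by limma and 765 genes at an unadjusted p under 0.05. The 3 of the 10 with such a p were Apoa5 (-0.54, SE 0.18, adjusted p = 0.556), Apoa4 and Apoa1 (-0.34, SE 0.14, adjusted p = 0.623). All 3 were lower at day 30 without overlap, as 11.6% of all genes were apart in either direction. Comparisons of days and of diets share groups, so these values are not separate evidence.

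A set of 6 lists places the apolipoproteins among genes that act on the same particles. Of 11 other particle proteins tested, 2 rose and 6 fell over both days, beside 14.5% of all genes called higher and 26.1% called lower, with a median log2 fold change of -0.24 against -0.05 over all genes. Saa1 and Saa2, acute-phase apolipoproteins of HDL, fell by 1.93 (SE 0.28, adjusted p = 0.000315 in limma) and 1.26 (SE 0.23, adjusted p = 0.00138) on the log2 scale. Apon fell by 0.79 (SE 0.11, adjusted p = 0.000152), Clu, the HDL-associated clusterin, fell by 0.32 and Pon3, an HDL-bound paraoxonase, fell by 0.26. Apoh, beta-2-glycoprotein I, rose by 0.30. Beside these, Kupffer cell and macrophage markers were lower at day 25, where 7 of 10 fell, against 9.34% of all genes called lower, and their summed FPKM was 75.1 to 125 in Con mice and 48.8 to 58.8 in CR mice. At day 30 limma called 1 of the 10, which was higher, and over both days 1 rose and 6 fell. The summed FPKM of hepatocyte markers at day 30 was 40594 to 49894 in Con mice and 59145 to 70973 in CR mice. Most of this sum was Alb, at 25401 to 51723 FPKM over the 12 libraries. The median log2 fold change of the 8 hepatocyte markers tested was 0.13 at day 30. At day 30, 3 of 8 hepatocyte, 3 of 6 stellate and 3 of 6 endothelial markers tested rose, against 8.33% of all genes called higher, and over both days 2, 3 and 3 rose. The part of these cell types in any result was not tested.

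Of 12 genes for particle assembly and Apob editing, 2 rose and 3 fell over both days (median -0.0063), a share called near the 40.6% of all genes. Mttp, which loads lipid onto Apob, fell by 0.23 (SE 0.062, adjusted p = 0.0125 in limma), Pla2g12b by 0.45 and Apobec1, the enzyme that edits Apob mRNA, by 0.32. The Apobec1 call was lost under quantile normalization (adjusted p = 0.137) and without Con mouse 2 of either day or CR mouse 3 of day 30 (adjusted p of 0.101 to 0.105). P4hb, the partner subunit of Mttp, rose by 0.38 and Sar1b, a GTPase of secretory vesicles, by 0.27. Of 11 receptor and uptake genes, 1 rose and 4 fell (median -0.14), beside 14.5% of all genes called higher and 26.1% called lower. Sort1, a sorting receptor that binds Apob, fell by 1.14 (SE 0.18, adjusted p = 0.000504 in limma). Vldlr, the 1 gene counted as risen, changed by 0.60 (SE 0.11). Its group means were 0.47 and 0.38 FPKM in Con mice and 1.05 and 1.29 in CR mice at day 25 and day 30. Only CR mice reached 1 FPKM for Vldlr. It thus passed the filter through the diet in which it is high, and its call is no support for a rise. Lrp1 fell by 0.23 and Lrpap1 by 0.25, of which the call of Lrp1 was lost after centring by transcript length (adjusted p = 0.215), under median-ratio scaling (0.136) and in 5 of 12 fits that left out 1 mouse. Mylip, a ubiquitin ligase, was called higher at day 30 (0.44, adjusted p = 0.0432) and not over both days, except under quantile normalization, with centring by transcript length and the block at day 25 together, and without CR mouse 2 of day 25.

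Of 5 genes for HDL lipid transfer, 1 rose and 2 fell over both days (median -0.01), and of 8 genes of triglyceride clearance, 2 rose and 2 fell (median -0.05). Over all genes, 14.5% were called higher and 26.1% lower. Abca1, which loads cholesterol onto Apoa1, fell by 0.50 (SE 0.12, adjusted p = 0.00843 in limma) and Pltp, the phospholipid transfer protein, by 0.39. Lipg, endothelial lipase, rose by 0.56. Angptl4, an inhibitor of lipoprotein lipase, rose by 0.62 (SE 0.13, adjusted p = 0.00284) and Gpihbp1, which anchors the lipase, by 0.44. Lpl, the lipase itself, fell by 0.93 (SE 0.18, adjusted p = 0.00184) and Angptl8 by 0.79. The call of Gpihbp1 was lost without Con mouse 1 of day 25, Con mouse 2 of day 30 or CR mouse 2 of day 30 (adjusted p of 0.103 to 0.105). That of Angptl8 was lost without the filter (0.111), Con mouse 1 of day 25 (0.115) or Con mouse 3 of day 30 (0.118). Levels near the pseudocount understate a fold change, and voom gave -1.48 for Lpl, -1.63 for Sort1 and 1.497 for Vldlr. Lpl was at a mean of 2.79 and 4.15 FPKM in the Con groups of day 25 and day 30, far below the apolipoproteins.

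Of 24 transcription factors known to act on apolipoprotein genes, 7 rose and 3 fell over both days (median 0.03). The 10 called are a share near the 40.6% of all genes called, of which 14.5% were higher and 26.1% lower. Nr1d1, a circadian repressor, fell by 2.32 (SE 0.094, adjusted p = 1.85e-08 in limma), from means of 45.5 and 50.6 FPKM in the Con groups to 7.99 and 9.52 in the CR groups. Foxo1 rose by 0.79, Cebpb by 0.74 and Ppargc1a, a coactivator of fasting metabolism, by 0.92. Hnf4a, a main hepatocyte regulator, was not called (0.16, adjusted p = 0.179).

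**Figure D5:**
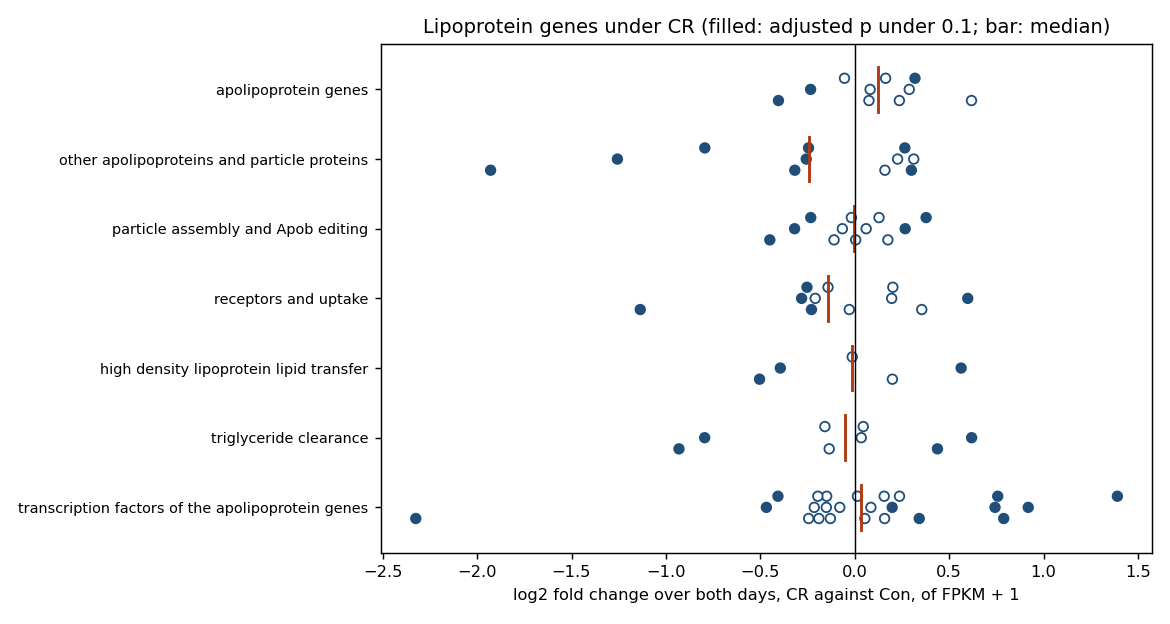
Log2 fold change over both days, CR against Con, of FPKM + 1, for the 10 apolipoprotein genes and the tested genes of 6 lists. Each point is a gene, filled points have an adjusted p under 0.1, and bars are the median of a list. The apolipoprotein genes lay between -0.40 and 0.62, and the other particle proteins reached -1.93.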

How the data were processed

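Paired-end liver RNA-Seq of 12 mice was used, sequenced on a single lane. The authors processed reads with CASAVA 1.8.2 and FastQC, mapped them to mm10 with BWA and named DESeq2 for differential expression. The deposited table holds FPKM values, which per the file header the authors made with HOMER by counting exon reads over a single transcript of each gene, and which were not scaled between libraries. Low FPKM values fell on whole multiples of 1 read (1500 per library, within 0.1), which gave back depth and read counts. Depth limits the precision of genes with few reads.

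FPKM are not counts, so log2(FPKM + 1) was tested with limma 3.58.1 in R 4.3.3, in 1 model of 4 groups with a trend on expression, for genes that reached 1 FPKM in 3 or more libraries. The comparison over both days had day as a covariate. All tests are 2-sided, and a limma p-value sets a difference against the spread between the mice sequenced, moderated over all genes tested. With voom, the recovered reads were tested as an alternative. Python 3.11.15, pandas 2.3.3, numpy 2.4.6, scipy 1.17.1 and matplotlib 3.10.9 made the tables and figures.

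The 10 genes, the gene lists and the rules for naming genes were chosen with earlier results of these data known. All 10 genes are named. From each list, genes called at day 25, at day 30 or over both days are named, at most the 6 with the smallest p over both days. The 3 protein-coding genes most correlated with the 2 members of smallest p are named too. Hnf4a, named beside them, was added after its value was seen. Con mice of day 30 share 1 label number, so they are numbered by column. At day 25, same-numbered mice of the 2 diets, whose numbers come from the labels, deviated together (correlations 0.106 to 0.368), so the number was used there as a block in an alternative fit. Other alternatives were the pseudocount, the filter, scaling, the trend, the groups in the model, a minimum fold change, each mouse left out and centring by transcript length. Some genes of the fixed lists count in their list's totals and are not reported by name here.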

Additional observations from a re-analysis of the deposited data

How the results depend on the processing

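Depth, 3 mice per group and the dependence on 1 mouse limit these results, and a call lost when a mouse is left out can reflect the smaller sample. Without the filter on low values, 0 of the 10 genes were called at day 30 and 1 over both days. A minimum fold change of 2 left 1 gene at day 30 and 0 over both days, and 157, 234, 176 and 15 genes of the whole table at day 25, at day 30, over both days and between days within CR mice. Over both days, 5 of the 10 were called under median-ratio scaling, and 5 with the replicate block at day 25, which was added after seeing the data and gained Apoc3 and Apom. The block changed no call at day 25 (0 of 10). At day 30 the numbers of the Con mice came from columns, so whether the numbers pair mice of the 2 diets is not known. Same-numbered correlations were 0.0456 to 0.181 (mean 0.114, against -0.057 between different numbers), and 3 of 6 mice correlated best with their own number. There the block gave 3 calls among the 10 and 2604 in the table, against 2619. Within CR mice (-0.382 to 0.299, 2 of 6) it gave 0 among the 10 and 43 in the table, against 34.

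Leaving out 1 mouse gave 0 to 1 calls among the 10 at day 25, 0 to 2 at day 30 and 1 to 4 over both days. For the whole table it gave 893 to 1374 genes at day 25, 1497 to 2292 at day 30, 0 to 5 for the interaction, 2 to 26 within CR mice and 0 to 22 within Con mice. Calls for the interaction were 3 with a pseudocount of 0.1 and after centring by length, and 0 under quantile normalization and voom. Within Con mice the smaller pseudocount gave 1 call. Within CR mice calls were 21 with that pseudocount, 8 without the filter, 54 under median-ratio scaling and 67 after centring by length, against 34.

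At day 30, Apob also lost its call under median-ratio scaling (adjusted p = 0.183), quantile normalization (0.108), TPM scaling (0.112) and with only the groups compared (0.139). Over both days it kept its call under all alternatives but the minimum fold change. Signs turned for Apoe at day 30 (0.046) and over both days (0.011) under median-ratio scaling and for Apoc2 over both days (-0.017) under quantile normalization. With 1 mouse left out, they turned for Apoa4 at day 25 (range -0.61 to 0.29, with 0.13 without CR mouse 1), Apoc1 at day 25 (-0.034 to 0.17) and day 30 (-0.024 to 0.20), Apoe at day 30 (-0.096 to 0.023, with 0.0034 without CR mouse 3) and Apoc2 over both days (-0.037 to 0.17). The causes were not tested. No formal outlier test was made, since groups hold 3 mice.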
